A study of Mus musculus with 8 samples.

Results

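Chemokines, interleukins and interleukin receptor chains were followed in BMEL cells, a bipotential cell line from embryonic mouse liver, after forced expression of the epithelial transcription factor GRHL2. The members are all genes of the deposited expression table whose symbol begins with Ccl, Cxcl, Cx3cl or Il followed by a digit. They numbered 77 of 18671 genes, and 33 of them had a mean above 4 in the control samples and are described first within each group. The study compared 4 samples transfected with a GRHL2 plasmid (labelled pIGrhl2) and 4 transfected with pcDNA3 (labelled pcDNA), numbered n1 to n4 in each group and harvested 48 h after transfection. All 8 samples were grown on collagen with fetal bovine serum, IGFII, EGF and insulin. The GRHL2 plasmid carries the human cDNA with a Flag tag under the EEF1A1 promoter together with enhanced GFP, so the groups differ by more than GRHL2, and the proportion of cells that took up plasmid is not given in the sources used here. The study describes its RNA-seq replicates of these cells as independent biological ones. In such bulk RNA, fewer cells of a type and less RNA per cell cannot be told apart.

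Values are in log2 units and were read as regularised logarithms less the log2 of transcript length, so that levels can be set side by side between genes as well as between samples. The regularised logarithm pulls the samples of a weakly expressed gene together, and its differences are understated. Read totals per sample are unknown. A gene was called when limma, fitted on all 18671 genes, gave a Benjamini-Hochberg adjusted p under 0.05. Mouse Grhl2 itself had 4.53 ± 0.124 in control samples and 6.24 ± 0.548 in GRHL2 samples (SD, n = 4; adjusted p = 0.001), and reads of the human cDNA that map to the mouse gene may be part of this value. Checked against markers of liver cells, Krt19 (15.05 in control samples), Krt7 (12.79) and Hnf4a (11.16) were high, Alb was at 5.25, and the leukocyte antigen Ptprc was at 0.90 in control and 0.88 in GRHL2 samples. Of the leukocyte marker list, 10 of 12 genes were in the table, and their summed level ran from 6.78 to 6.93 in control samples and from 6.93 to 6.99 in GRHL2 samples, mostly from Cd68 (6.08 and 6.25) and Csf1r (4.48 and 4.45). The part of leukocyte RNA in the values below was not tested.

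Chemokines are small secreted proteins that bind G protein-coupled receptors and guide the migration of leukocytes, and they are named CC, CXC or CX3C by the spacing of their first cysteines. Interleukins signal through paired receptor chains, in which a chain that binds the ligand joins a chain shared between several cytokines, such as gp130 for the IL-6 family or IL-17RA for the IL-17 family. Epithelial cells, including those of bile ducts, are known both as sources of chemokines and as targets of IL-17 family cytokines.

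GRHL2 samples had 10 members higher and 4 lower than control samples. Il17re, the receptor chain for IL-17C, rose 2.49-fold and Cxcl10, an interferon-induced chemokine, fell 2.19-fold, whereas the other 12 called members moved by less than 0.5 on the log2 scale. The 10 higher members are 13% of the 77, beside 10.5% of all genes, and the 4 lower members are 5.19%, beside 5.91% of all genes. In either direction 18.2% of the members and 16.4% of all genes were called. With a control mean above 4, 4 of 33 members were higher and 4 were lower, 12.1% in each direction, beside 7.32% and 8.19% of the genes above that level. At or below a control mean of 4, 6 of 44 members were higher and none was lower, 13.6% beside 16.3% of all genes at that level higher and 1.76% lower. Of the 6, Il10ra may have passed the authors' filter for genes with few reads only through its GRHL2 samples. The median difference was 0.01 for the members and 0.01 for all genes, and 44 members had a positive difference. All 4 GRHL2 samples lay above all 4 control samples in 13 members, beside 14.3% of all genes, and below them in 8, beside 9.47% of all genes. These counts include all 14 called members, and for each of them the exact two-sided permutation test of 4 against 4 gave p = 0.0286, the smallest it can give. The remaining 63 members had differences from -0.24 to 0.38, with standard errors of up to 0.151.

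**Figure D1:**
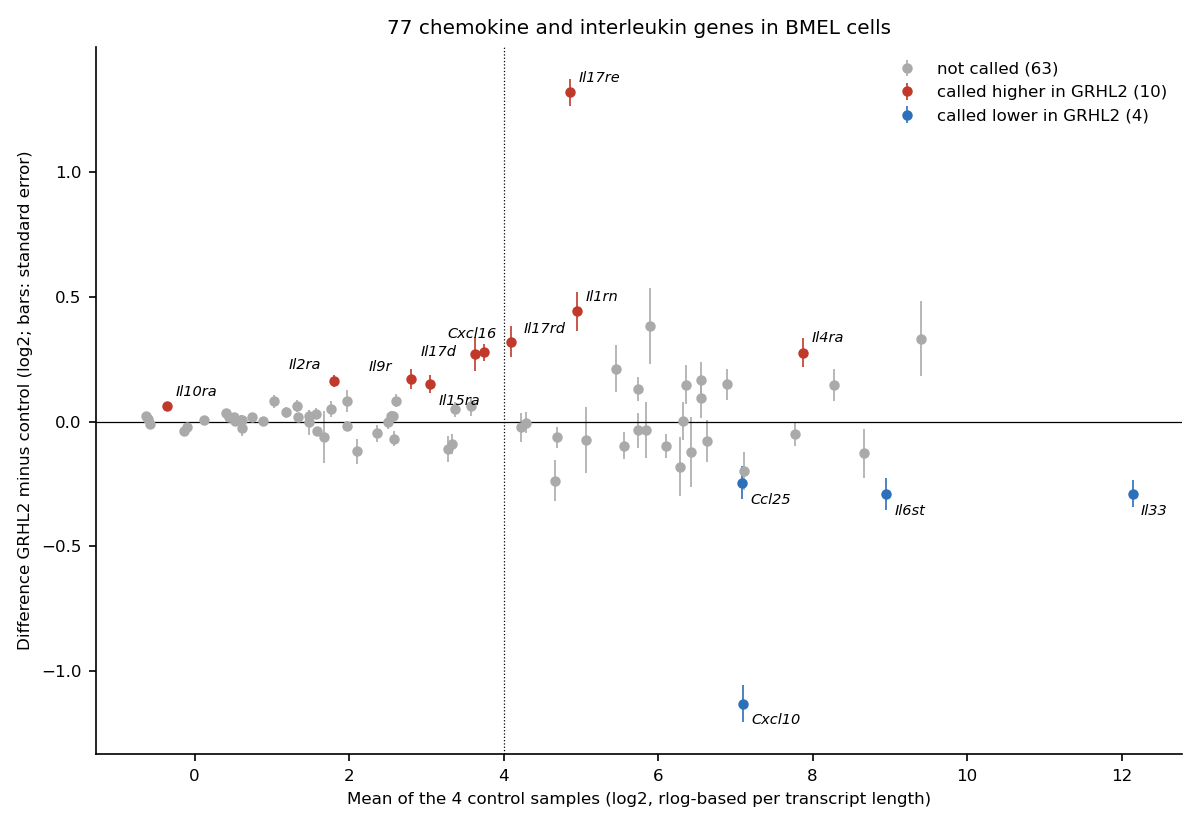
Difference between GRHL2 and control samples (log2, bars are standard errors) against the mean of the 4 control samples (log2) for the 77 members. Il17re at 1.32 and Cxcl10 at -1.13 stand apart from the other called genes, and the dotted line marks the control mean of 4.

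By role, these shares are to be read beside 10.5% of all genes higher and 5.91% lower. Of 29 interleukin receptor chains, 7 were higher (24.1%) and 1 was lower (3.45%), with a median difference of 0.05. Of 21 interleukins, 1 was higher and 1 was lower (4.76% each). Of 12 CC chemokines, none was higher and 1 was lower (8.33%), and of 9 CXC and CX3C chemokines, 1 was higher and 1 was lower (11.1% each). Among 4 antagonists and decoys, 1 was higher, and neither the enzyme gene Il4i1 nor the antisense RNA Il1bos was called, at control means of 3.58 and -0.60. Of the exon bases of Il4i1, 83.9% are shared with Tbc1d17. Whether the classes differed from each other was not tested.

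Cxcl10 encodes the ligand of CXCR3 that draws activated T cells, and lies on chr5:92346638-92348889, minus strand (GRCm38, GENCODE M21). Its level was 7.01, 7.23, 7.25 and 6.94 in control samples 1 to 4, and 5.91, 6.06, 5.99 and 5.94 in GRHL2 samples 1 to 4. All control samples lay above all GRHL2 samples, and the differences within the 4 replicate numbers went up to -1.25. The mean went from 7.11 ± 0.153 to 5.98 ± 0.0637 (SD, n = 4), a difference of -1.13 (SE 0.0734, adjusted p = 3.16e-05), and it was -1.13 in replicates 1 and 2 alone as well as in replicates 3 and 4 alone. Opposite-strand Art3 shares 133 exon bases (5.9%) of Cxcl10, and the counting took no account of strand.

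Genes of the interferon response, with which Cxcl10 is classed in textbooks, were lower in the same samples. Of a list of 17 such genes, all in the table, 8 were called lower and none higher (47.1% lower, beside 5.91% of all genes), with a median difference of -0.25, beside 0.01 for all genes. With the replicate block 13 were lower and 1 was higher, beside 13.9% and 18.2% of all genes. Ifit3 went from 7.80 to 5.92 (difference -1.88, adjusted p = 2.9e-05) and Ifit1 from 6.81 to 5.18 (-1.63, adjusted p = 1.85e-05), both interferon-induced RNA-binding proteins. Irf7, a transcription factor of the type I interferon loop, fell by 0.50 (adjusted p = 0.00428). Irf1 (0.16, adjusted p = 0.468) was the gene called higher with the block (adjusted p = 0.0268, higher in 4 of 4 pairs). Ifnb1, the interferon-beta gene, was at 1.87 in control samples and 1.80 in GRHL2 samples, where its SD was 0.0006. Its GRHL2 samples lay below all control samples without a call (adjusted p = 0.0959), at a level where the regularised logarithm leaves little spread. Cxcl11, a chemokine of the same receptor, was at -0.10 and -0.13, too low to follow.

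The sequence upstream of Cxcl10 is shown because it holds 3 of the motifs searched within its 250 bases (RefSeq, GRCm38.p6, chr5:92348890-92349139, minus strand, read 5′ to 3′ up to the base before the start).
Cxcl10 upstream: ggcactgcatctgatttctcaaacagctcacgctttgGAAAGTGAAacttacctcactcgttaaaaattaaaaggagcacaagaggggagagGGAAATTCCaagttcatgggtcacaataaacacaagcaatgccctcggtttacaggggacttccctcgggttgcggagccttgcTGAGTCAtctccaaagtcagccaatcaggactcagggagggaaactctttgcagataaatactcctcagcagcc
Capitals mark, from left to right, an interferon response element match (GAAANNGAA) 213 bases before the start, an NF-kB match (GGANNTTCC) at 158 and an AP-1 match (TGANTCA) at 74. Each motif was searched on both strands in the 250 bases before 32851 mouse starts. GAAANNGAA occurred in 7.13% of these promoters, GGANNTTCC in 3.59% and TGANTCA in 6.75%. The table held 75 promoters of 58 members, and 9.33%, 14.7% and 16.0% of them had the respective motif. A match of these letters is a description and not a binding site.

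The other chemokine called lower was Ccl25, the ligand of CCR9 (chr8:4325210-4360020, plus strand). It was at 7.14, 7.20, 6.97 and 7.03 in control samples and at 6.92, 6.91, 6.82 and 6.70 in GRHL2 samples. All GRHL2 samples were lower than any control sample, and the difference was -0.25 (SE 0.0665, adjusted p = 0.0326). The call was lost when control sample 1 or 2, or GRHL2 sample 3 or 4, was left out (adjusted p = 0.0925, 0.0766, 0.074 and 0.0769). Its exons share 2.7% of their bases with Elavl1 on the opposite strand.

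Cx3cl1, which encodes the membrane-bound chemokine fractalkine, had the highest level of all chemokines, above 81.2% of the genes of the table. Control samples had 9.30, 9.10, 9.63 and 9.59, and GRHL2 samples 9.62, 9.40, 9.91 and 10.01. The groups overlapped, and every GRHL2 sample lay above the control sample of its own number, by 0.29 to 0.42. The mean difference of 0.33 (95% interval -0.01 to 0.67) was not called (adjusted p = 0.168), and it was called with the replicate number as a block (adjusted p = 0.000366).

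Ccl20, the ligand of CCR6, came next among chemokines, with 8.78, 8.47, 8.63 and 8.79 in control samples and 8.73, 8.29, 8.55 and 8.58 in GRHL2 samples. The groups overlapped, and the difference of -0.13 (adjusted p = 0.424) was called with the replicate block (adjusted p = 0.0435), but not with GC correction and block together (adjusted p = 0.106). Without GRHL2 sample 2, and with control sample 2 kept, the difference was -0.05, while the 4 pairs gave -0.05, -0.18, -0.08 and -0.21. Ccl2, the main monocyte attractant, showed the same arrangement at a lower level. It ran from 6.05 to 6.41 in control samples and from 5.74 to 6.27 in GRHL2 samples (difference -0.18, adjusted p = 0.344, with the block 0.0143). Without GRHL2 sample 2, and with control sample 2 kept, its difference was -0.06, while the 4 pairs gave -0.105, -0.31, -0.16 and -0.14. The other CC chemokines above 4 were not called in either fit. Ccl27a, Ccl6 and Ccl9 had control means of 6.10, 5.74 and 5.55 and differences of -0.10, -0.03 and -0.10. Ccl27a and its neighbour Il11ra1 lie in a mouse locus with near-identical copies, so their values are uncertain.

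Among CXC chemokines above 4, the neutrophil attractant Cxcl1 was at 6.32 ± 0.0676 in control and 6.32 ± 0.16 in GRHL2 samples (SD, n = 4), with a 95% interval of the difference from -0.17 to 0.17. Cxcl12, the ligand of CXCR4, was at 5.07 ± 0.279 and 4.99 ± 0.176 (interval -0.37 to 0.22). Neither was called. Cxcl16, a transmembrane chemokine that binds CXCR6, lay just under the threshold with a control mean of 3.75, while Il17rd lay just above it with 4.10. Cxcl16 was at 3.77, 3.77, 3.73 and 3.74 in control samples and at 4.01, 4.11, 4.01 and 3.99 in GRHL2 samples. Each GRHL2 sample exceeded every control sample, and the gene rose by 0.28 (SE 0.034, adjusted p = 0.000747). Zmynd15 on the opposite strand shares 18.3% of its exon bases. The other 10 chemokines at or below a control mean of 4, among them Ccl5, Ccl17, Ccl7, Ccl3, Ccl22, Cxcl2, Cxcl14 and Cxcl17, were not called, and their control means ran from -0.13 (Ccl28) to 2.59 (Ccl5). Of these only Ccl28 (-0.13 in control and -0.17 in GRHL2 samples), named here after its values were seen, was called with the replicate block (adjusted p = 0.0451; 0.0591 without it).

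Il33, which encodes a nuclear alarmin released from damaged epithelial cells, had the highest level of all members, above 98.0% of the genes of the table (chr19:29925114-29960718, plus strand). It was at 12.09, 12.23, 12.12 and 12.13 in control samples and at 11.97, 11.88, 11.76 and 11.80 in GRHL2 samples. Control and GRHL2 ranges were separate, and Il33 fell by 0.29 (SE 0.0541, adjusted p = 0.00623), a 1.22-fold change. The gene of its receptor chain, Il1rl1, was at 1.98 in control samples and 2.06 in GRHL2 samples and was not called (adjusted p = 0.225).

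Of the other interleukins above 4, none was called in the fit of 2 groups. Il15, a growth factor of NK cells and memory T cells, had 6.78, 6.89, 6.89 and 6.98 in control samples and 6.91, 7.04, 7.05 and 7.14 in GRHL2 samples. The ranges overlapped while the 4 differences by number were nearly equal, from 0.13 to 0.16, and the adjusted p was 0.125 without and 0.0135 with the block. Il24, of the IL-10 family, went from 5.94, 6.11, 5.76 and 5.77 to 6.39, 6.71, 6.06 and 5.97. Its difference of 0.38 was the largest among members not called (adjusted p = 0.114, with the block 0.00213), with 0.52 for replicates 1 and 2 and 0.24 for 3 and 4. Without GRHL2 sample 2, and with control sample 2 kept, it was 0.24 (adjusted p = 0.185), while the 4 pairs gave 0.45, 0.59, 0.29 and 0.195. Il4 (5.75 and 5.88) had separate groups, GRHL2 above control, without a call (adjusted p = 0.0941). Il18 was at 4.30 and 4.29, with a 95% interval of the difference from -0.10 to 0.09.

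The 15 interleukins at or below 4 held 1 call, that of Il17d, described with its family. Il11, of the IL-6 family, had a control mean of 2.61 and a difference of 0.08 (adjusted p = 0.0587), and its GRHL2 samples lay above all control samples. Il12a and Il22 also had groups that did not overlap, with differences of 0.04 and -0.04 and no call. Il12a had a control SD of 0.0008. Genes with few reads over all samples had been removed, so it may remain only through its GRHL2 samples, and its separation is not support for a rise. Il6, the founding gp130 cytokine, was at 2.10 in control and 1.98 in GRHL2 samples, and Il23a, a subunit of IL-23, at 1.33 and 1.39. Neither was called in the fit of 2 groups, both were with the block (adjusted p = 0.0394 and 0.0458), Il23a also with equal upper quartiles (0.0376), Il6 had a difference of -0.06 without control sample 2, and both are named after their values were seen. Il7, Il16, Il19, Il20, Il34, Il10 and Il13 had control means from 0.12 (Il13) to 2.51 (Il7) and differences of at most 0.04 (Il16), and none was called in either fit. Of the 44 members in this range, 40 had a control SD of 0.1 or less.

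Of the 8 members named for IL-17 or its receptors, 3 were called, beside 16.4% of all genes. IL-17 receptors are pairs of chains in which IL-17RA joins IL-17RC to bind IL-17A and IL-17F, or IL-17RE to bind IL-17C, the epithelial member of the family. Il17re (chr6:113458484-113470758, plus strand) was at 4.93, 4.86, 4.75 and 4.90 in control samples and at 6.17, 6.28, 6.09 and 6.17 in GRHL2 samples. The lowest GRHL2 sample lay more than 1 unit above the highest control sample. The mean rose from 4.86 ± 0.077 to 6.18 ± 0.0781 (SD, n = 4), by 1.32 (SE 0.053, adjusted p = 3.02e-06). Replicates 1 and 2 gave a difference of 1.33, and replicates 3 and 4 one of 1.31. Its exons share no bases with another annotated gene.

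Il17rc lies 668 bases downstream of Il17re on the same strand (chr6:113471427-113483140). Its level was the highest of the family, with 8.20, 8.16, 8.36 and 8.37 in control samples and 8.35, 8.34, 8.48 and 8.50 in GRHL2 samples. The groups overlapped, and the difference of 0.15 was called only with the block (adjusted p = 0.155 without and 0.0134 with it). Il17ra, the shared chain, was at 7.10, 7.25, 7.06 and 7.05 in control samples and at 6.96, 7.09, 6.74 and 6.87 in GRHL2 samples. Again the groups overlapped, and each GRHL2 sample lay below its control by 0.14 to 0.31. The difference of -0.20 was not called without the block (adjusted p = 0.109) but was with it (0.00764). It was also called when GRHL2 sample 2 was left out and control sample 2 was kept (-0.26, adjusted p = 0.0381). As a result of the 3 differences, Il17re lay 2.15 to 2.39 below Il17ra in control samples and 0.65 to 0.81 below it in GRHL2 samples. Il17re lay 3.27 to 3.60 below Il17rc in control samples and 2.06 to 2.39 below it in GRHL2 samples. Both comparisons were chosen after the values were seen.

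Il17rd, which encodes a receptor-like chain known to restrain FGF and IL-17 signalling, was at 3.996, 3.98, 4.25 and 4.17 in control samples and at 4.44, 4.34, 4.47 and 4.42 in GRHL2 samples (chr14:27038941-27107286, plus strand). The groups did not overlap, and it rose by 0.32 (SE 0.0619, adjusted p = 0.00748), by 0.40 in replicates 1 and 2 and 0.24 in replicates 3 and 4. Il17rb, a chain of the IL-25 receptor, was at 0.60 and 0.61.

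The ligands of the family did not move together. Il17c was at 4.63, 4.95, 4.56 and 4.53 in control samples and at 4.49, 4.42, 4.41 and 4.40 in GRHL2 samples. All GRHL2 samples lay below all control samples, and the difference of -0.24 was called with the block (adjusted p = 0.0244) but not without it (0.0761). With control sample 2, the highest, left out, the difference was -0.14 and called (adjusted p = 0.0447). Il17d was at 3.63, 3.60, 3.64 and 3.65 in control samples and at 4.06, 4.01, 3.81 and 3.73 in GRHL2 samples, a rise of 0.27 (SE 0.0668, adjusted p = 0.0221). The ranges were separate, yet replicates 1 and 2 differed by 0.42 and replicates 3 and 4 by 0.13, and the call was lost without control sample 1 (adjusted p = 0.057) or 2 (0.0572). Il17f was at 3.28 and 3.17 and was not called (adjusted p = 0.189).

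**Figure D2:**
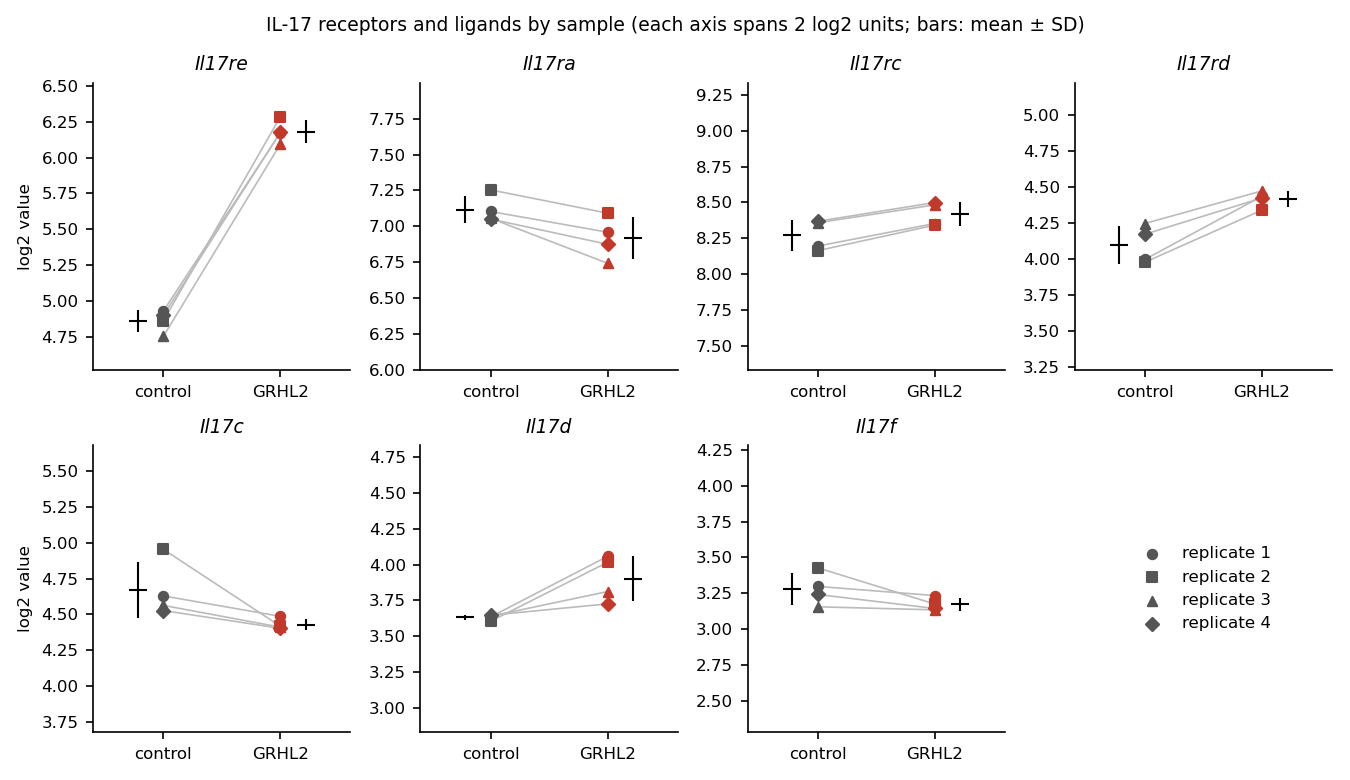
Levels of 4 IL-17 receptor chains (Il17re, Il17ra, Il17rc, Il17rd) and 3 ligands (Il17c, Il17d, Il17f) in each sample (log2). Lines join samples of the same replicate number, and crosses give the mean and SD of each group (n = 4). Il17re separates the groups by more than any other gene shown, and Il17ra, Il17c and Il17f lie lower in GRHL2 samples in all 4 pairs.

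Genes downstream of the IL-17 receptor moved in both directions. Of 8 listed, 2 were higher and 1 was lower (3 and 1 with the block), beside 10.5% and 5.91% of all genes (18.2% and 13.9% with the block), with a median difference of 0.06. Cebpb, a transcription factor of acute-phase genes, fell from 8.05 to 7.63 (difference -0.41, adjusted p = 0.000362), while the related Cebpd rose from 2.86 to 3.05 (0.19, adjusted p = 0.00228). Zc3h12a, which encodes the RNase Regnase-1 that degrades cytokine mRNAs, rose by 0.23 (adjusted p = 0.0335), a call lost in 4 of the 8 fits that left out a single sample (adjusted p = 0.0828 to 0.0968). Traf3ip2, the adaptor Act1, was at 7.56 and 7.63 and was not called. In replicates 1 and 2 and in replicates 3 and 4, the difference of Cebpb was -0.43 and -0.40 and that of Cebpd 0.19 and 0.20.

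Il6st, which encodes gp130, was the receptor chain with the highest level and the only one called lower (chr13:112464070-112510086, plus strand). It was at 8.91, 9.15, 8.86 and 8.91 in control samples and at 8.70, 8.63, 8.68 and 8.65 in GRHL2 samples. The groups did not overlap, and it fell by 0.29 (SE 0.0647, adjusted p = 0.0143). Of its partner chains that bind a ligand, Il6ra had 4.23 and 4.21 and Il11ra1 had 6.36 and 6.51, and neither was called. In a list of 16 further genes of the gp130 system, 15 were in the table, 4 were higher and 1 was lower, beside 10.5% and 5.91% of all genes. With the block 6 were higher and 4 lower, beside 18.2% and 13.9%. The LIF receptor chain Lifr rose by 0.18 (adjusted p = 0.0202; 0.0538 without control sample 2). The signal transducer Stat3 had a difference of 0.15 (adjusted p = 0.049), and its call was lost without any single sample other than control sample 2 (adjusted p = 0.0732 to 0.13) and with GC correction (0.0658). The ligand gene Lif was at 8.98 in control and 8.68 in GRHL2 samples (adjusted p = 0.102, with the block 0.00105).

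Il4ra, the chain shared by the IL-4 and IL-13 receptors, was the third receptor chain above 4 called higher, after Il17re and Il17rd (chr7:125552120-125579474, plus strand). It was at 7.87, 7.79, 7.94 and 7.91 in control samples and at 8.13, 8.03, 8.26 and 8.20 in GRHL2 samples. The groups did not overlap, and it rose by 0.28 (SE 0.0585, adjusted p = 0.0117), with 0.24 to 0.32 in the 4 pairs. Its exons share 9.5% of their bases with Gm44876, an antisense RNA gene. Il13ra1, with which IL-4Rα forms the receptor of non-haematopoietic cells, was at 1.02 and 1.10 (adjusted p = 0.0701).

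Of the other receptor chains above 4, Il1r1, the signalling receptor of IL-1, had 5.27 to 5.65 in control and 5.47 to 5.86 in GRHL2 samples (difference 0.21, adjusted p = 0.16, with the block 0.0218). Il10rb, shared by the IL-10 and IL-22 receptors, had 6.45 to 6.68 and 6.65 to 6.84 (difference 0.17, adjusted p = 0.14, with the block 0.0101). In both the groups overlapped. Il22ra1, which encodes a chain of the IL-22 receptor, was at 7.78 ± 0.0488 and 7.73 ± 0.061 (SD, n = 4), with a 95% interval of the difference from -0.16 to 0.06. Il20rb, Il3ra, Il5ra and Il18rap had control means of 5.84, 6.64, 6.43 and 6.55, differences of -0.03, -0.08, -0.12 and 0.09, and no call. With single samples left out the 4 differences ran, in that order, from -0.13 to 0.05, from -0.13 to -0.0032, from -0.24 to -0.01 and from 0.04 to 0.15. Il18rap, the accessory chain of the IL-18 receptor, lay 7.08 to 7.37 above the ligand-binding chain Il18r1 in control samples and 7.17 to 7.42 above it in GRHL2 samples, a comparison chosen after the values were seen. Il18r1 had the lowest control mean of all members (-0.63), where the regularised logarithm leaves little spread, so the size of this distance is uncertain.

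Below 4, 4 of 14 receptor chains were higher and none was lower, 28.6% beside 16.3% of all genes at that level higher and 1.76% lower. Il9r, the receptor of the mast cell growth factor IL-9, went from 2.80 ± 0.0369 to 2.97 ± 0.0795 (SD, n = 4; difference 0.17, adjusted p = 0.0168) and Il15ra, which presents IL-15, from 3.05 ± 0.0255 to 3.20 ± 0.0726 (0.15, adjusted p = 0.0212). Il2ra, the alpha chain of the IL-2 receptor, was at 1.82, 1.82, 1.80 and 1.80 in control samples and at 1.98, 1.98, 2.01 and 1.91 in GRHL2 samples (difference 0.16, SE 0.0232, adjusted p = 0.00162). Il10ra had -0.35 in every control sample and -0.32 to -0.25 in GRHL2 samples (difference 0.06, adjusted p = 0.0202). None of these groups overlapped. At such levels the regularised logarithm leaves little spread, and Il10ra had a control SD of 0.0014. Per the methods, genes with few reads over all samples were removed. A gene with almost no control reads then remains only through its GRHL2 samples. Whether Il10ra is such a gene cannot be read from the values, so its separation and call are not support for a rise. The call of Il10ra was lost without control sample 1 (adjusted p = 0.0532) or GRHL2 sample 1 (0.0541). That of Il15ra was lost without control sample 2, 3 or 4 (adjusted p = 0.0507 to 0.053). Il2rb, which encodes a chain that IL-2 and IL-15 receptors share, was at 1.67 and 1.61 and was not called. Il1rap, the partner chain of the IL-1 receptor, was at 1.76 and 1.81 (adjusted p = 0.334). Il12rb2 and Il12rb1, the chains of the IL-12 receptor, had control means of 3.33 and 2.36 and differences of -0.09 and -0.05, and 40.0% of the exon bases of Il12rb2 lie within Serbp1 on the opposite strand. Il21r and Il27ra had control means of 1.48 and 0.74 and were not called either.

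Il1rn, which encodes the antagonist that occupies the IL-1 receptor without signalling, had the second largest rise of all members (chr2:24336853-24351494, plus strand). It was at 5.00, 5.02, 4.95 and 4.82 in control samples and at 5.21, 5.59, 5.36 and 5.40 in GRHL2 samples. Even the lowest GRHL2 sample exceeded the highest control sample, and Il1rn rose by 0.44 (SE 0.077, adjusted p = 0.00448), by 0.21 to 0.58 in the 4 pairs. The difference Il1rn minus Il1r1 within a sample overlapped between the groups, from -0.82 to -0.27 in control and from -0.49 to 0.13 in GRHL2 samples. The other antagonists and decoys were not called. Il18bp, which binds IL-18, was at 4.69 and 4.62, the decoy receptor Il1r2 at 3.37 and 3.41, and Il22ra2 at -0.58 and -0.59. The IL-1 ligand gene in the table, Il1a, was at 0.52 in both groups.

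**Figure D3:**
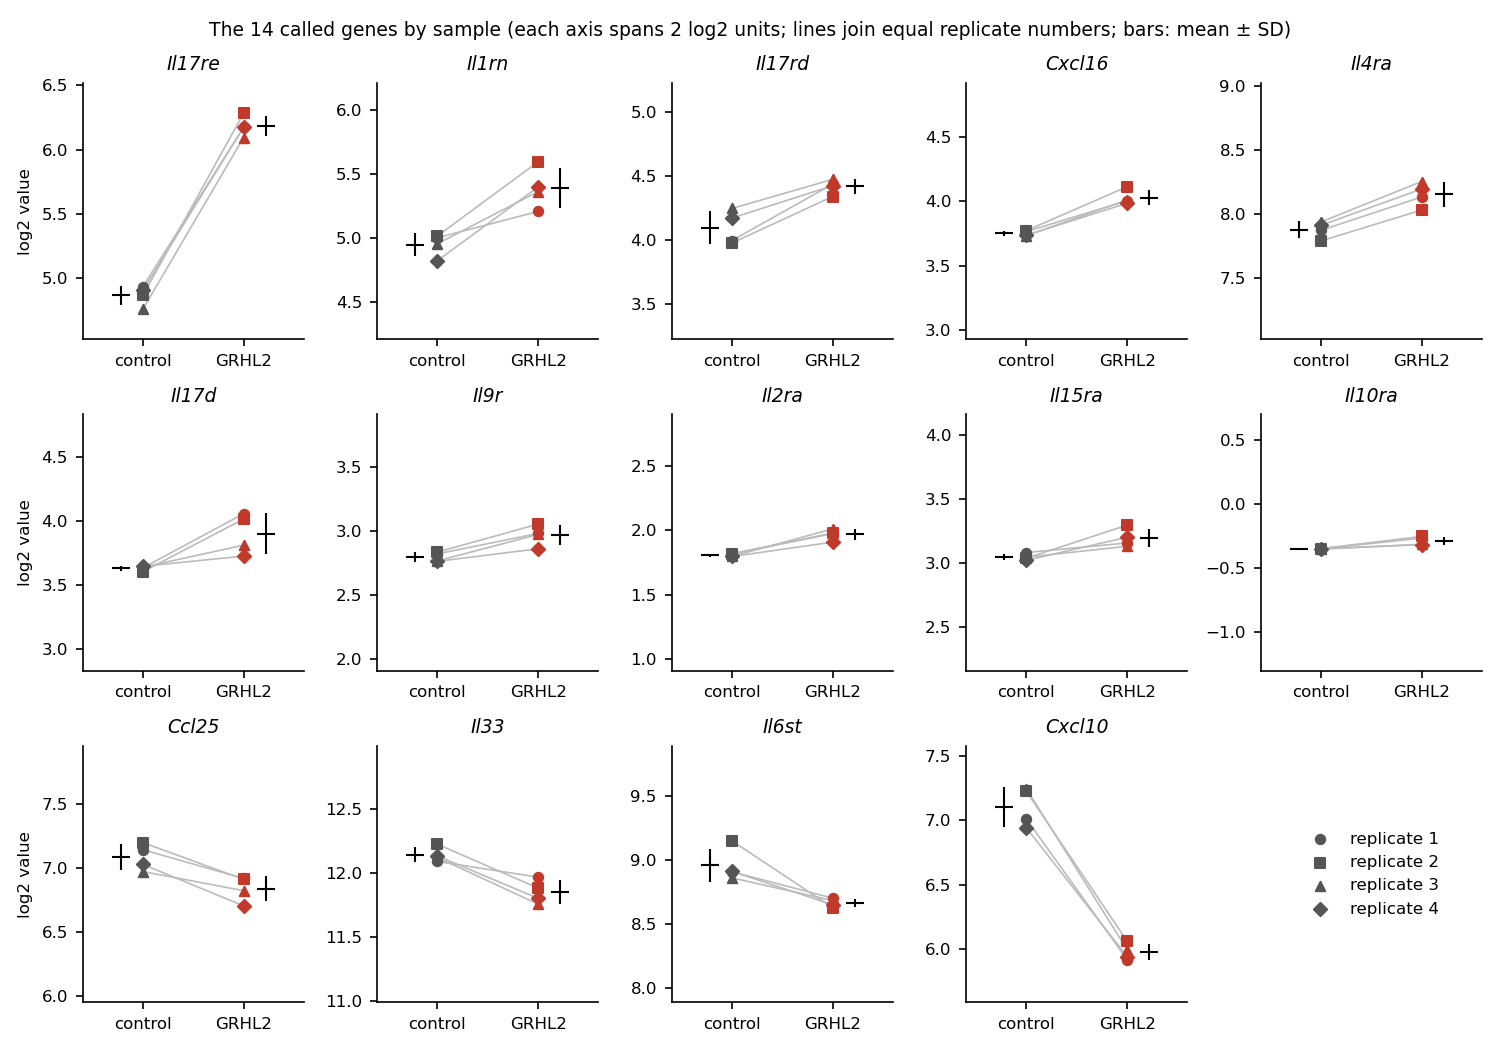
Level in each sample (log2) of the 14 called members, ordered from the largest rise (Il17re) to the largest fall (Cxcl10). Each axis spans the same number of log2 units, lines join samples of the same replicate number, and crosses give the mean and SD of each group (n = 4). In every panel the control and GRHL2 samples are separate, by a wide margin in Il17re and Cxcl10 and by a narrow one in Il9r, Il10ra and Il15ra.

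Grainyhead factors such as GRHL2 are known to bind a palindrome of the form AACCGGTT. This motif was in 0.116% of the 32851 promoters and in none of the 75 member promoters. The looser form AACNNGTT was in 3.64% of all promoters and in 3 member promoters (4.0%), those of Il1rn, Il2ra and Cx3cl1. The upstream sequences of Il1rn and Il2ra are shown because both genes were called higher (RefSeq, GRCm38.p6, plus strand, chr2:24336610-24336852 and chr2:11642542-11642791).
Il1rn upstream: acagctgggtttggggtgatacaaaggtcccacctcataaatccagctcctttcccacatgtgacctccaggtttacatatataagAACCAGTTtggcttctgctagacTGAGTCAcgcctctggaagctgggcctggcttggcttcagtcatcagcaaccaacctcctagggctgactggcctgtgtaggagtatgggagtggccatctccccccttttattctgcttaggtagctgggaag
Il2ra upstream: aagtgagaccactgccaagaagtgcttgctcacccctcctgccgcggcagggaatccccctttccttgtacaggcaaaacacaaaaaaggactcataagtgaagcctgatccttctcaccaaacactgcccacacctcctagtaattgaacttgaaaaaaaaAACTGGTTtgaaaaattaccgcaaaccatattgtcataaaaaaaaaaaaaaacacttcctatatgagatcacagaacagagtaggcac
Capitals mark AACCAGTT at 164 and TGAGTCA at 141 bases before the RefSeq start of Il1rn, and AACTGGTT at 88 bases before that of Il2ra. The Il1rn sequence ends at the GENCODE start, which comes earlier. Upstream of the other RefSeq starts of Il1rn, chr2:24345041-24345290 and chr2:24345121-24345370 held no match to any motif searched. Which start these cells use was not tested. In Cx3cl1 the match AACTGGTT lay 115 bases before the RefSeq start and inside the gene as GENCODE places it.

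The replicate number was taken to pair the samples, and with it as a block 13 members were called that were not called in the fit of 2 groups on the same samples. Of these, 7 were higher and 6 lower, 10 had a control mean above 4, and all 13 lay on the same side in 4 of 4 pairs. In 10 of them the groups overlapped. Their adjusted p-values ran from 0.000366 to 0.0458 with the block and from 0.0591 to 0.424 without it. With the block 17 members were higher and 10 lower, together 35.1% of the members, beside 32.1% of all genes (18.2% higher and 13.9% lower). Of the 13, Cx3cl1, Il17ra and Il24 were also called in replicates 3 and 4 alone.

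**Figure D4:**
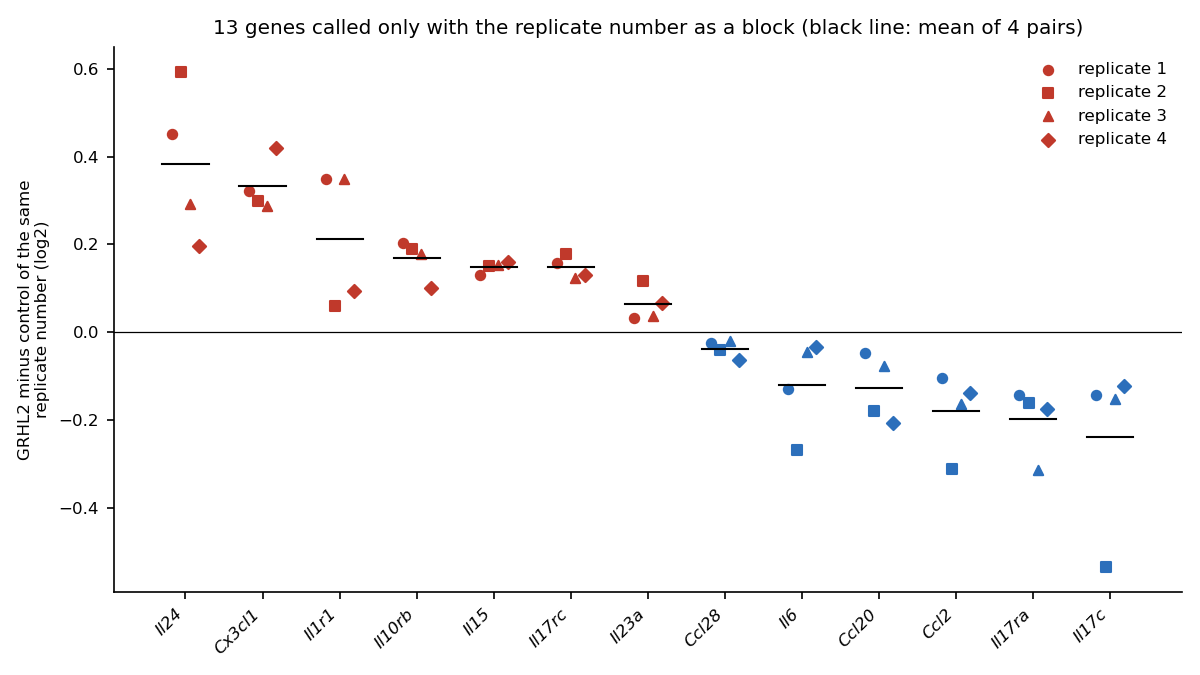
Difference between the GRHL2 and the control sample of the same replicate number (log2) for the 13 members called with the replicate block but not in the fit of 2 groups, red where the mean is positive and blue where it is negative. Points are the 4 pairs and black lines their means. No gene has pairs on both sides of 0, and the pair of replicate 2 lies farthest from 0 in 6 of the 13 (Ccl2, Il6, Il17c, Il17rc, Il23a and Il24).

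The receptors and signalling genes that go with the members were examined as lists, whose counts stand beside 10.5% of all genes higher and 5.91% lower, or 18.2% and 13.9% with the block. Of 23 chemokine receptors, 13 were in the table and only Ackr3, the scavenger receptor of CXCL12, had a control mean above 4, at 6.55. Ackr3 rose by 0.22 (adjusted p = 0.0321), by 0.36 in replicates 1 and 2 but 0.09 in replicates 3 and 4. It lost its call in 5 of the 8 fits without a single sample (adjusted p = 0.0664 to 0.0849). Ccrl2, which presents the chemoattractant chemerin, rose from 3.14 to 3.35 (adjusted p = 0.00131) and Cxcr4 went from 1.77 to 1.88 (adjusted p = 0.0167). Cxcr4 had a control SD of 0.0025 and, like Il10ra, may have passed the read filter only through its GRHL2 samples. Its call is therefore not support for a rise. None of the 13 was called lower, and the median difference was 0.01.

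Of 15 listed genes of IL-1 receptor signalling, 14 were in the table, with 1 higher and 1 lower (2 and 3 with the block) and a median difference of 0.00. Irak4, the kinase at the head of the pathway, rose by 0.23 (adjusted p = 0.0371), a call lost in 6 of those 8 fits (0.0572 to 0.0992), and Tollip, an inhibitor of it, fell by 0.25 (adjusted p = 0.00917). Of 15 NF-kB subunits and regulators, 1 was higher and 2 were lower (3 and 5 with the block). Nfkbie, which encodes the inhibitor IkB-epsilon, rose by 0.34 (adjusted p = 0.007). Ikbkg, the regulatory subunit NEMO, fell by 0.33 (adjusted p = 0.00596) and the subunit Relb by 0.22 (adjusted p = 0.0478), which was not called without any single sample other than control sample 2 (0.0565 to 0.104). Of 21 other cytokines and receptors, 14 were in the table, with 1 higher and 1 lower (5 and 2 with the block). Tnfsf9, the 4-1BB ligand, rose by 0.39 (adjusted p = 0.011), and Csf1, the growth factor of macrophages, fell from 9.08 to 8.66 (difference -0.42, adjusted p = 0.00408).

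Marker lists of other cell types were read against the same shares of all genes, 10.5% higher and 5.91% lower, or with the block 18.2% and 13.9%. None of 5 endothelial markers in the table was called (2 were higher with the block), and their summed level was 4.57 to 4.60 in control and 4.54 to 4.66 in GRHL2 samples. Of 5 stellate or fibroblast markers, Pdgfrb and Reln were called higher (40% of the list, and 3 genes with the block), at control means of -0.23 and 0.91. Of 8 hepatocyte markers, 12.5% were lower, which is Afp alone, by 0.21 (adjusted p = 0.0124), and Hnf4a was at 11.16 and 11.15. Of 6 biliary or progenitor markers, 33.3% were higher, and all 6 with the block. Epcam rose by 1.75 (adjusted p = 4.59e-07) and Krt7 by 0.44 (adjusted p = 0.00201). The summed level of all 6 was 15.20 to 15.49 in control and 15.60 to 15.70 in GRHL2 samples. It came mostly from Krt19 (15.05 and 15.21), which was not called (adjusted p = 0.0732). The part of these shifts in the differences of the members was not tested.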

How the data were processed

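RNA-seq of total RNA (VAHTS Universal V8 libraries, paired-end) was available for 8 samples of BMEL cells, grouped by the plasmid in the sample labels. The submitters' processing notes name HISAT2 2.2.1, HTSeq 0.9.1 and DESeq2 1.40.2, with the builds mm10 and GRCm39. Per the methods, the authors counted reads on exons without strand, removed genes with few reads, and divided the regularised logarithm of DESeq2 by transcript length. The values were read here as that logarithm less the log2 of the length. The methods open with public data, and that they cover these samples was assumed. The values deposited by the authors run from -2.85 to 18.01, 4.81% of them are below 0, and they were therefore treated as log2 values although the table is named for FPKM. Depth cannot be read from them.

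Members, gene lists and tests were chosen with earlier results of these data known. All 18671 genes were tested with limma 3.58.1 in R 4.3.3 (2 groups, mean-variance trend, Benjamini-Hochberg adjustment, threshold 0.05), with no pseudocount or filter. The script was tested on simulated data. Positions and exon overlaps are from GENCODE M21 on GRCm38. A summed level is the log2 of the sum of linear values over a list. Named genes were members with a control mean above 4, called members, those nearest the threshold, Grhl2, markers, and up to 3 called genes a list. Full values were set for the called members above 4, the 5 highest control means and the 5 largest changes in each direction.

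Replicate numbers come from the sample labels. Deviations from the group means of samples with the same number correlated with r = 0.474 to 0.645 (mean 0.558), against a mean of -0.183 for other numbers, so the numbers were taken to pair the samples. Numbers 1 and 2, and 3 and 4, also deviated together, with r of up to 0.602. Alternatives were the replicate block, equal upper quartiles, equal sums, no trend, a mean of at least 4, each sample left out, and replicates 1 and 2 or 3 and 4 alone. A single sample was left out of the fit of 2 groups while the sample of its number was kept, so those differences do not follow the pairs. A GC correction (lowess, span 0.3), without and with the block, was chosen after seeing the data. No protein sequences were analysed here, and some genes of the lists are not reported here.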

Additional observations from a re-analysis of the deposited data

Results flagged for a closer look

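Each group of 4 samples was examined in 42 members (the 33 above a control mean of 4, the 6 called below it, and Ccl28, Il23a and Il6) for a sample far from the other 3, by its gap to the nearest sample as a share of the range. In 6 of 84 groups this share passed Dixon's 95% critical value, and chance gives about 1 in 20. Il5ra in control sample 2 was at 6.76, the nearest other control sample being at 6.35, and Il18rap in the same sample was at 6.73, with 6.51 as the nearest. Ccl27a was at 6.13 in GRHL2 sample 4, with 5.97 as the nearest. Il6ra was lowest in control sample 1, at 4.10, with 4.27 as the nearest. At low levels, Il23a was at 1.37 in control sample 1, with 1.31 as the nearest, and Il6 at 2 in GRHL2 sample 2, with 1.98 as the nearest. With all samples in the fit of 2 groups none of these 6 genes was called. Ccl27a was called when GRHL2 sample 4 was left out (difference -0.14, adjusted p = 0.0498), and Il5ra in replicates 3 and 4 alone (-0.20, adjusted p = 0.0318).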

How the results depend on the processing

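All 14 called members had the same sign under each alternative in which they were tested. Members called higher numbered 10. They were 17 with the replicate block, 16 with equal upper quartiles, 16 with equal sums, 4 with a mean of at least 4 (8 of the 14 called members were then tested, and all 8 were called), 6 in replicates 1 and 2 alone and 21 with GC correction and block. Members called lower numbered 4, against 10 with the block, 1 in replicates 1 and 2 alone and 8 with GC correction and block. Over all genes 1957 were higher, against 3396 with the block, 3064 with equal upper quartiles, 913 with a mean of at least 4, 1021 in replicates 1 and 2 alone and 3157 with GC correction and block. Over all genes 1104 were lower, against 2589, 339 and 2751 with the block, in replicates 1 and 2 alone and with GC correction and block, 1667 in replicates 3 and 4 alone, and 690 to 1036 with single samples left out. Against 1957 higher and 1104 lower genes, equal upper quartiles gave 3064 and 972, and equal sums 2912 and 869. A mean of at least 4 leaves fewer genes, and equal upper quartiles and equal sums shift all genes of a sample by the same amount. These scalings moved the median difference of all genes from 0.01 to 0.03. The cause of the other shifts was not tested. The replicate block added the 13 calls given beside their genes and changed no other call of a member. Of these 13, Ccl20, Ccl28, Il17rc and Il6 were not called with GC correction and block together (adjusted p = 0.106, 0.814, 0.0591 and 0.0726), whereas Ccl27a (difference -0.14, adjusted p = 0.028), Il4 (0.16, adjusted p = 0.0208), Il13ra1, Il18r1, Il1bos and Il1rl1 were called there, though neither in the fit of 2 groups nor with the block alone. Equal upper quartiles added Il11, Il12a, Il13ra1, Il1bos, Il23a and Il4, and equal sums Il11, Il12a, Il13ra1, Il16, Il18r1 and Il23a. Replicates 3 and 4 alone added Cx3cl1, Il13ra1, Il17ra, Il24 and Il5ra. Single samples left out added Il13ra1 (GRHL2 sample 1), Il17ra (GRHL2 sample 2), Il12a and Il1rl1 (GRHL2 sample 3), Ccl27a and Il11 (GRHL2 sample 4) and Il17c (control sample 2). Of the 14 calls, 7 were held in replicates 1 and 2 alone and 10 in replicates 3 and 4 alone, which have fewer samples. With single samples left out 11 to 14 held. Ccl25 lost its call without control sample 1 or 2 or GRHL2 sample 3 or 4, Il17d without control sample 1 or 2, Il15ra without control sample 2, 3 or 4, and Il10ra without control sample 1 or GRHL2 sample 1. Without a trend Il10ra, and with GC correction alone Il10ra and Il17d, were not called, while GC correction alone added Il12a, Il13ra1, Il17c and Il1bos. Read depth is unknown, and the regularised logarithm limits what can be seen in the 44 members at or below a control mean of 4.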
